A study of Mus musculus with 6 samples.

Results

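A set of 10 genes of sulfate supply and use, and of the building, trimming and cleaving of heparan sulfate, was followed in mouse islets. The mutant mice were made to lose the transcription factor Nkx6-1 in the pancreas. They are Slc26a1, Slc26a2, Papss1, Papss2, Ndst1, Hs2st1, Hs6st1, Sulf2, Hpse and Sult1d1, taken by gene name from the array, where they carry 14 of 39429 probes and 10 of 31829 gene names. Papss2, Slc26a1, Hpse and Sult1d1 were chosen by their measured difference between mutant and control islets in earlier results of these same arrays, so these differences are described here and not tested. The 6 others were added for their place in the pathway, with earlier results of these data known.

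The mutants were male Nkx6.1fl/-;Pdx1-CreERTM mice and the controls male Nkx6.1fl/+;Pdx1-CreERTM mice, littermates on a mixed background of FVB/N, C57Bl/6J and Cd1, and islets were taken at 6 weeks. Pdx1-CreERTM is a recombinase under the Pdx1 promoter that acts once tamoxifen is given, and both groups received it as 4 doses, each of 2 mg for every 25 g of mouse, starting at 4 weeks. Both groups carried a floxed allele, so the induced deletion applies to controls too. Opposite the floxed allele the mutants carried a null allele and the controls a wild-type one. Where the deletion acts, it leaves controls with their wild-type allele and mutants with no intact allele. The effect of carrying the null allele before tamoxifen cannot be told apart from that of losing both alleles after it. Each RNA sample pooled 2 pancreata of 1 genotype, and 3 mutant and 3 control samples (A to C in each group) were hybridised to a single-colour Agilent mouse array each.

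Sulfate enters cells through anion exchangers of the SLC26 family and is activated by PAPS synthases, which make 3'-phosphoadenosine 5'-phosphosulfate (PAPS), the sulfate donor of all sulfotransferases. In the Golgi, sulfotransferases use it to decorate heparan sulfate, a glycosaminoglycan of cell surfaces and basement membranes that binds growth factors, and in the cytosol other sulfotransferases use it to conjugate hormones, monoamines and drugs. Outside the cell the chains are edited by endosulfatases and cut by heparanase. Mouse beta cells are known to hold much heparan sulfate.

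A value below is the normalized log2 signal of a probe, its background-corrected intensity relative to the 75th percentile of its array, and 0 stands at that percentile. The share of probes well above background was 63.9 to 74.4% in mutant arrays and 73.4 to 76.3% in control arrays, and mutant arrays A and B had the lowest shares. Of 8 beta cell markers, 8 were above background on every array, Ins1, Ins2 and Iapp among them. So were all 12 markers of acinar (exocrine) cells, so this does not tell islet from exocrine RNA. The mean log2 signal of the acinar list was above that of the beta cell list on every array. It ran from 5.66 to 8.18, against 4.67 to 5.36 for the beta cell list. The lists hold different genes, so these means do not give shares of cells. Nkx6-1 itself read 4.32, 4.06 and 4.45 in mutants A to C and 4.79, 4.85 and 4.64 in controls A to C, lower in every mutant (difference -0.48, SE 0.14) but short of the threshold at an adjusted p of 0.131 (limma). Its probe may lie outside the deleted part, which the labels do not give. The extent of the deletion was not measured here, and the cause of the small difference was not tested. Mutant A shared slide 2 with controls B and C, and mutants B and C shared slide 1 with control A.

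The promoter windows of the genes chosen for their change are shown first, because Nkx6-1 is a homeodomain factor and proteins of this class commonly bind sites around the letters TAATTA. They are the 250 bases before the most upstream start in the RefSeq table (GRCm38.p6), written 5′ to 3′ in the direction of the gene, with matches to TAATTA in capitals. The motif reads the same on both strands.
Slc26a1, chr5:108675366-108675615, minus strand: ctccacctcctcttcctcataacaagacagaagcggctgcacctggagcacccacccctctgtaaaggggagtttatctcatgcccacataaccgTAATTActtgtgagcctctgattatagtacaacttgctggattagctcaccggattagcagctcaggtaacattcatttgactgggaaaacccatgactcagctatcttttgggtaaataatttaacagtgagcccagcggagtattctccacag
Sult1d1, chr5:87569007-87569256, minus strand: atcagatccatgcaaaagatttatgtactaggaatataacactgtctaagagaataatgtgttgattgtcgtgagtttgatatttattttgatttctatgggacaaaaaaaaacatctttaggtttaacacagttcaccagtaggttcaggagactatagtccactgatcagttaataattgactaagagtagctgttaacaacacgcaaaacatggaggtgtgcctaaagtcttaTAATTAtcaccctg
Hpse, chr5:100719717-100719966, minus strand: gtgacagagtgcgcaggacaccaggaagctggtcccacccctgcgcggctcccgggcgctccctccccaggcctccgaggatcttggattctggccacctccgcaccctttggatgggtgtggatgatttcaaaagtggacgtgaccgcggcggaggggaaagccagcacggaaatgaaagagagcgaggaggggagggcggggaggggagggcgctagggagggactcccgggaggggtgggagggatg
Papss2, chr19:32595465-32595714, plus strand: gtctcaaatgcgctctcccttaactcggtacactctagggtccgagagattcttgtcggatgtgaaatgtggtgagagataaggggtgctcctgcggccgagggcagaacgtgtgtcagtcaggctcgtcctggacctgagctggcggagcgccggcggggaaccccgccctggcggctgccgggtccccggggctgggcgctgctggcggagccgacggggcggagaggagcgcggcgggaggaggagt
The match begins 155 bases before the start in Slc26a1 and 14 bases before it in Sult1d1. Among all 32851 windows of this length in the table, 4.84% held the motif. Among the 12 windows of 8 of the genes 2 did, those shown for Slc26a1 and Sult1d1. The window of a second Slc26a1 start, not shown, held no match. Slc26a2 and Ndst1 have no window in the table. A match describes letters, not a bound site.

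The probe that stands for each gene is 60 bases long, and its place in the files (mm9) is as follows. Slc26a1 is read at chr5:109099563-109099622 and Slc26a2 at chr18:61357164-61357223. Papss1 is read at chr3:131306415-131306474 and Papss2 at chr19:32741618-32741677. The chain-modifying genes Ndst1, Hs2st1 and Hs6st1 are read at chr18:60845854-60845913, chr3:144094574-144094633 and chr1:36162666-36162725. Sulf2 is read at chr2:165899667-165899726 and Hpse at chr5:101108565-101108624. Whether these stretches are exon or UTR was not looked up, as no annotation of that build was used here.

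The sulfate transporter genes lay in opposite directions, Slc26a1 lower and Slc26a2 higher in mutants. Slc26a1, an exchanger of sulfate, oxalate and bicarbonate known from liver and kidney, read -2.43, -2.08 and -2.11 in mutants A to C, against -0.94, -0.27 and -0.33 in controls A to C. Every mutant lay below every control, the means were -2.21 ± 0.19 in mutants and -0.51 ± 0.37 in controls (SD, n = 3 each), and the level was 3.24-fold lower in mutants. Within slide 1 the difference was -1.16 and within slide 2 it was -2.13, the widest gap between slides among the 10 genes, and control A, the only control on slide 1, was the lowest of its group. In a bulk sample, fewer cells of a type and less RNA per cell cannot be told apart, here and for every gene below.

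Slc26a2, the widely expressed sulfate transporter whose loss causes diastrophic dysplasia in humans, rose. It read -2.18, -1.73 and -2.17 in mutants A to C, against -3.17, -2.96 and -3.22 in controls A to C, and the groups did not overlap. The means were -2.03 ± 0.25 in mutants and -3.11 ± 0.14 in controls (SD, n = 3 each), a difference of 1.09 (SE 0.16) or 2.12-fold, which passed the threshold (limma, adjusted p = 0.0364). A block for slide ended the call (1.06, adjusted p = 0.0568), with differences of 1.22 within slide 1 and 0.91 within slide 2. Leaving out any of the 6 arrays ended it too, where the difference stayed between 0.94 and 1.17 and the adjusted p between 0.0603 and 0.158.

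Of the PAPS synthases, Papss2 was lower in mutants and Papss1 did not pass the threshold. Both enzymes join an ATP sulfurylase and an APS kinase in a single chain, and PAPSS2 mutations impair skeletal growth and the sulfation of adrenal androgen in humans. Papss2 read 4.57, 4.41 and 4.37 in mutants A to C, against 5.84, 5.93 and 5.86 in controls A to C. Every mutant lay below every control, the means were 4.45 ± 0.10 in mutants and 5.88 ± 0.04 in controls (SD, n = 3 each), and the level was 2.68-fold lower in mutants. The difference was -1.44 within slide 1 and -1.33 within slide 2, and it ran from -1.48 to -1.39 with each array left out in turn.

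Papss1 read 1.65, 1.74 and 1.61 in mutants A to C, against 1.46, 1.64 and 1.61 in controls A to C, so the groups overlapped. Its difference of 0.10 had a 95% interval of -0.16 to 0.35 (limma, adjusted p = 0.632).

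Ndst1, Hs2st1 and Hs6st1, which sulfate the growing heparan sulfate chain, did not pass the threshold, and their differences were not all of the same sign. Ndst1, the N-deacetylase and N-sulfotransferase that opens the modification of the chain, read 0.76, 0.85 and 0.73 in mutants A to C, against 0.43, 0.58 and 0.82 in controls A to C. These values overlap, and the difference was 0.17 with a 95% interval of -0.15 to 0.49 (limma, adjusted p = 0.507). Its other probes gave 0.20 and -0.12.

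Hs2st1, the uronic acid 2-O-sulfotransferase, read -0.30, -0.09 and -0.08 in mutants A to C, against -0.49, -0.92 and -0.63 in controls A to C. All mutants lay above all controls, by 0.52 on average (95% interval 0.16 to 0.88), without passing the threshold over all genes (limma, adjusted p = 0.131). The difference was 0.40 within slide 1 and 0.47 within slide 2.

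Hs6st1, a glucosamine 6-O-sulfotransferase, read -0.66, -1.15 and -1.33 in mutants A to C, against -0.52, -0.63 and -0.43 in controls A to C. Mutants lay below controls, with mutant A closest to them, and the difference was -0.52 (95% interval -0.98 to -0.05, limma adjusted p = 0.211). It was -0.71 within slide 1 and -0.13 within slide 2. The acinar markers, a sign of exocrine tissue carried over with islets, had a mean log2 signal of 5.66, 7.42 and 8.18 in mutants A to C, against 6.17, 6.38 and 6.77 in controls A to C, so the mutant arrays with the lower Hs6st1 values were those with more acinar signal. The controls did not follow that order, since control C had both the most acinar signal and the highest Hs6st1 value. With the acinar mean as a covariate the Hs6st1 difference was -0.36. The part of acinar tissue in the Hs6st1 values was not tested.

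The extracellular editing genes differed in direction, with Sulf2 higher and Hpse lower in mutants. Sulf2, an endosulfatase that removes 6-O-sulfate groups from finished chains, read -1.82, -1.70 and -1.57 in mutants A to C, against -2.59, -2.67 and -2.78 in controls A to C. It rose by 0.98 (SE 0.11) or 1.97-fold and passed the threshold (limma, adjusted p = 0.0214). Within slide 1 the difference was 0.95 and within slide 2 it was 0.90. With each array left out in turn it stayed between 0.92 and 1.04 but passed in 2 of the 6 fits only, those without control A and without mutant A. With the acinar mean as a covariate the difference was 0.93 and the adjusted p 0.0593.

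Hpse encodes heparanase, the endoglucuronidase that cuts heparan sulfate chains. It read -3.93, -4.46 and -3.78 in mutants A to C, against -1.78, -1.71 and -1.70 in controls A to C, lower in every mutant than in any control. The level was 5-fold lower in mutants, with -2.34 within slide 1 and -2.22 within slide 2. A second Hpse probe read -7.97, -7.77 and -7.59 in mutants and -4.94, -4.47 and -4.45 in controls. It was well above background on no mutant array, so only a bound can be given, a level at least 3.12-fold lower in mutants. That probe and the Sult1d1 probe used below are shown. Both have a reading frame without a stop codon, as do some probes not shown. Each has a sister probe for the same gene that differed in the same direction. Coordinates are those of the files (mm9).
Hpse, chr5:101114085-101114144, minus strand: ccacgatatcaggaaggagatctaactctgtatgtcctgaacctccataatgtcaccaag
Sult1d1, chr5:87985008-87985067, minus strand: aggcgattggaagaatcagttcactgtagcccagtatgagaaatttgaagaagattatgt

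Sult1d1, a cytosolic sulfotransferase that conjugates catecholamines and other small molecules in mice, was higher in mutants. The probe shown read 1.40, 1.44 and 1.67 in mutants A to C, against 0.09, 0.44 and -0.25 in controls A to C, which puts every mutant above every control at a level 2.66-fold higher. The other probe read -1.67, -1.15 and -1.06 in mutants and -2.52, -2.79 and -3.28 in controls, or 2.96-fold higher. The differences of the first probe were 1.46 within slide 1 and 1.31 within slide 2.

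**Figure D1:**
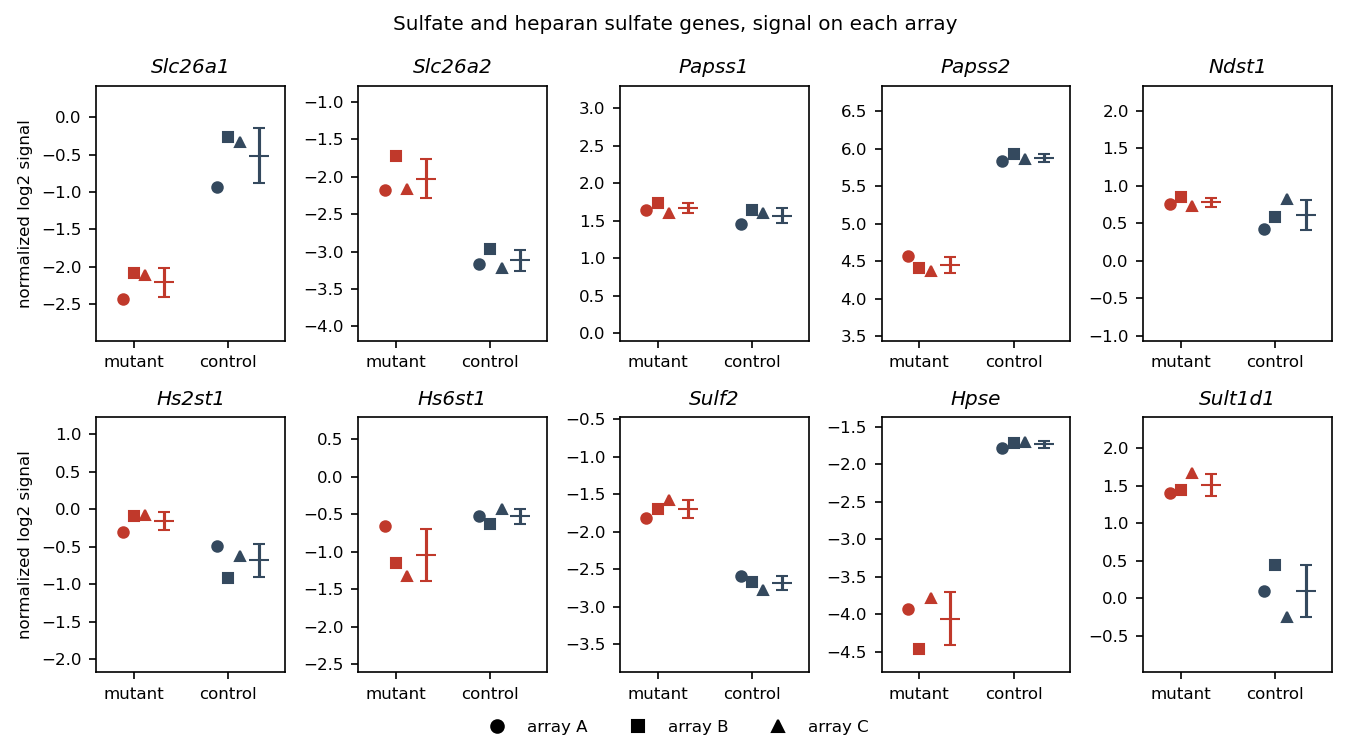
Normalized log2 signal of each gene on each array, mutants left and controls right, with a bar for the mean ± SD of 3 arrays. All panels span the same number of log2 units. Papss2, Slc26a1, Hpse and Hs6st1 lie lower in every mutant than in any control, Slc26a2, Sulf2, Hs2st1 and Sult1d1 higher, and Papss1 and Ndst1 overlap.

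Of the 6 genes not chosen for their change, 2 passed the threshold, both upward, where 2.53% of 22775 gene names tested passed in all and 1.41% passed upward. Mutant and control arrays did not overlap in 4 of the 6, against 26.3% of all gene names. As the 6 were chosen with earlier results of these data known, these counts are descriptive. All 10 genes were above background on all 6 arrays by the probe that stands for them, so none entered through a single group.

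**Figure D2:**
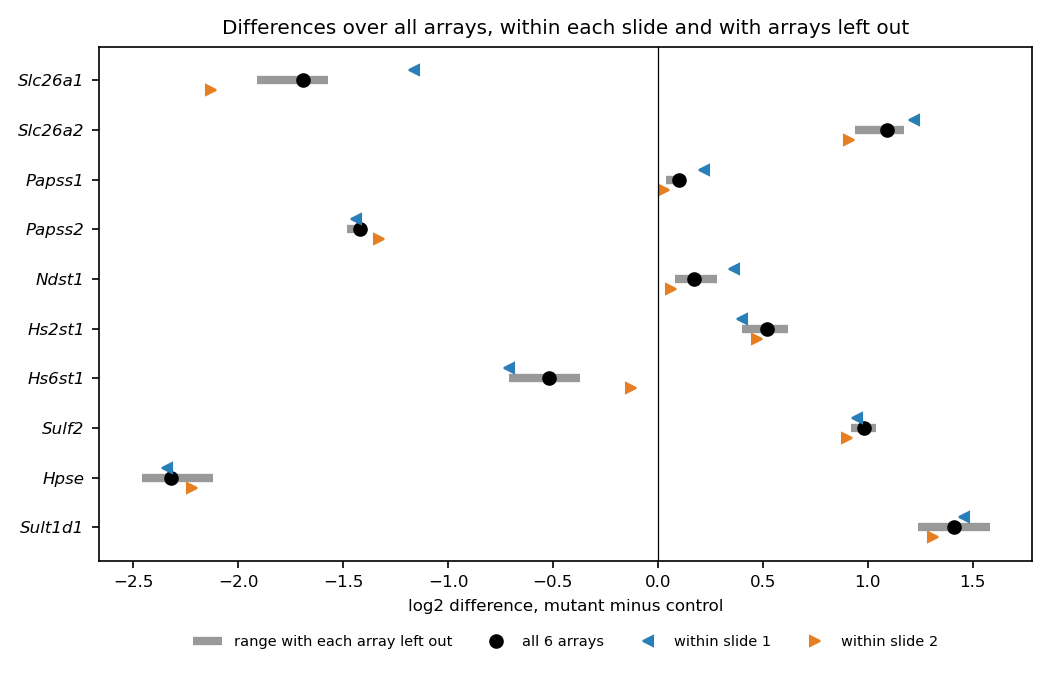
Log2 difference, mutant minus control, over all 6 arrays (circles), within slide 1 and slide 2 (triangles) and its range with each array left out in turn (grey bars). No gene changes sign. Slc26a1 has the widest gap between slides, at -1.16 and -2.13. Within slide 2 Papss1, Ndst1 and Hs6st1 lie nearest to 0, at 0.03, 0.06 and -0.13.

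Other genes of the pathway were taken from 14 lists made from general knowledge, with earlier results of these data known. Of 121 such genes on the array, 99 were tested and 4 passed the threshold, 2 higher and 2 lower, which is 4.04% beside 2.53% of all gene names. Their median difference was 0.11, against -0.025 over all gene names, and 36 of the 99, or 36.4%, did not overlap between the groups, beside 26.3% of all gene names. Mutants lay above controls in 24 (24.2%, beside 12.3% of all gene names) and below them in 12 (12.1%, beside 14% of all gene names).

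In chain sulfation, Hs6st3 rose and Glce fell. Hs6st3, a 6-O-sulfotransferase paralog of Hs6st1, read -3.23, -2.82 and -3.20 in mutants A to C, against -4.62, -4.84 and -4.94 in controls A to C. The rise was 3.29-fold (log2 difference 1.72, SE 0.16, limma adjusted p = 0.0151), and the log2 difference was 1.61 on slide 1 alone and 1.66 on slide 2 alone. Glce, the epimerase that turns glucuronic into iduronic acid ahead of 2-O-sulfation, read 0.28, 0.27 and 0.46 in mutants A to C, against 1.12, 1.13 and 1.20 in controls A to C. It fell by 0.82 on the log2 scale (SE 0.10, limma adjusted p = 0.0256). The mean of both Hs6st3 probes gave 1.11 (adjusted p = 0.0188), the other probe reading -4.67, -4.96 and -5.12 in mutants A to C, against -5.33, -5.57 and -5.33 in controls A to C, a difference of 0.50. Hs6st3 passed in 3 of 6 fits with an array left out and Glce in none, at adjusted p values of 0.0502 to 0.141. Of the 7 tested members of that list outside the 10 genes, the other 5 did not pass.

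Among 13 tested core proteins that carry the chains, Sdc3 fell and Tgfbr3 rose. Sdc3, syndecan-3, known from neural tissue, read -1.11, -1.18 and -1.51 in mutants A to C, against -0.25, -0.42 and 0.10 in controls A to C. Its fall was 2.11-fold (limma, adjusted p = 0.0460), and the call was lost with a slide block (adjusted p = 0.0692) and in each fit with an array left out (0.0736 to 0.158). Tgfbr3, betaglycan, a co-receptor of TGF-beta, read 1.07, 1.06 and 0.93 in mutants A to C, against 0.22, -0.11 and 0.00 in controls A to C. It rose 1.98-fold (limma, adjusted p = 0.0256) and passed in 1 of 6 fits with an array left out, where the adjusted p ran up to 0.135. Tgfbr3 lies 5.45 Mb from Nkx6-1 on chromosome 5, so the limit of linked sequence given below holds for it. The glypicans, perlecan (Hspg2), agrin and the remaining syndecans did not pass.

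No gene passed in the other 12 lists. The member with the largest difference in each is given here with its adjusted p from limma. In sulfate transport, Slc26a11 was at -0.55 (0.0886). In PAPS handling, Bpnt1, which breaks down the spent nucleotide of PAPS, was at -0.58 (0.312), and the Golgi PAPS transporters Slc35b2 and Slc35b3 were at 0.13 and 0.14 (0.573 and 0.615). In the making of sulfate from cysteine and sulfide, Tst, thiosulfate sulfurtransferase, was at 0.71 (0.197), and sulfite oxidase, Suox, at 0.37 (0.174).

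In the synthesis of the linker, Pxylp1, a xylose phosphatase named Acpl2 on the array, was at -0.72 (0.0862), and it passed with a slide block (0.0470). In chain polymerisation Extl3 was at 0.44 (0.236), while the polymerases Ext1 and Ext2 were at -0.03 and -0.06 (0.895 and 0.892). Among the remaining editing genes Hpse2, a heparanase homolog without known cleaving activity, was at -0.46 (0.573). Of 10 lysosomal genes of chain breakdown, Idua, the iduronidase, was at -0.53 (0.203).

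In the synthesis of chondroitin and dermatan sulfate Ust was at -0.69 (0.396), and 15 genes were tested. Chst9, which sulfates N-acetylgalactosamine, had a difference of 2.41 (0.0621) from a signal above background on 3 mutant and 2 control arrays. Tpst1, a protein tyrosine sulfotransferase, was at 0.27 (0.501). Among cytosolic sulfotransferases Sult1b1 was at 1.69 (0.0559) and Sult1c2 at -1.50 (0.0637). Arsk, a lysosomal sulfatase of uronic acids, was at 0.72 (0.249).

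**Figure D3:**
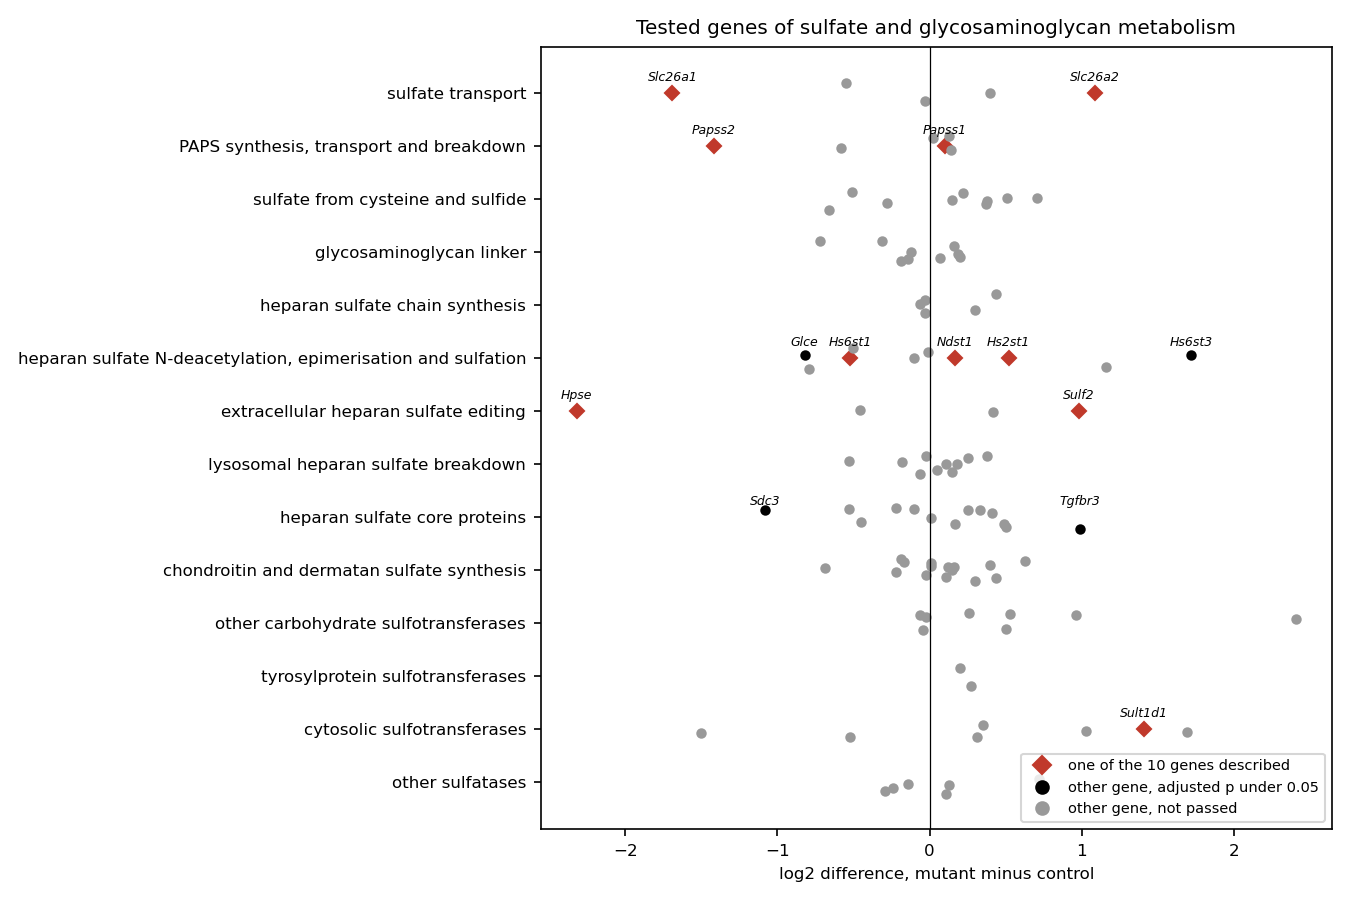
Log2 difference, mutant minus control, of each tested gene by list, with the 10 genes described as red diamonds, other genes past the threshold in black and the rest in grey. Heights within a row are scattered for legibility. The black points are Glce, Hs6st3, Sdc3 and Tgfbr3.

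Slc26a1, Hpse and Sult1d1 lie on chromosome 5 with Nkx6-1, their probes 7.01, 0.98 and 14.1 Mb from its probe. Mutants and controls differ by design in the chromosome that carries the null or the wild-type Nkx6-1 allele, and the labels do not say from which strain the linked stretch of the null allele comes. Effects of linked sequence, on expression or on binding of a probe, cannot be told apart from those of the loss of Nkx6-1 for these 3 genes. The same holds for other genes near Nkx6-1, Tgfbr3, Idua and Sult1b1 among them. Within 20 Mb, 12 of 393 other gene names passed the threshold, which is 3.05% beside 2.53% over the array. They were not evenly spread, so this share does not describe each part of the window. The nearest were Agpat9 (at -0.76 Mb, log2 difference 1.24), Tmem150c (-1.58 Mb, -0.96), Rasgef1b (-2.44 Mb, 1.62) and Bmp3 (-2.78 Mb, 1.48). With Hpse, all lie on the same side of Nkx6-1 and within 2.78 Mb of it, where most gene names did not pass. Farther out on that side only Sult1d1 passed. On the other side the nearest gene name to pass was Tgfbr3, at 5.45 Mb. The cause was not tested.

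The direct neighbours gave the following values. Slc26a1 lies within the span of Idua in the RefSeq table, and the array's probes for these genes read opposite strands. The Idua probe that stands for the gene read 3.23, 3.80 and 3.89 in mutants A to C, against 4.15, 4.23 and 4.12 in controls A to C, and its other probe differed by -0.04. Sult1b1 and Sult1e1 flank Sult1d1. Sult1b1 read -3.55, -2.30 and -2.80 in mutants A to C, against -4.67, -4.63 and -4.43 in controls A to C, so it lay on the same side as Sult1d1. Sult1e1, an estrogen sulfotransferase, was above background on 0 mutant and 2 control arrays and was not tested.

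**Figure D4:**
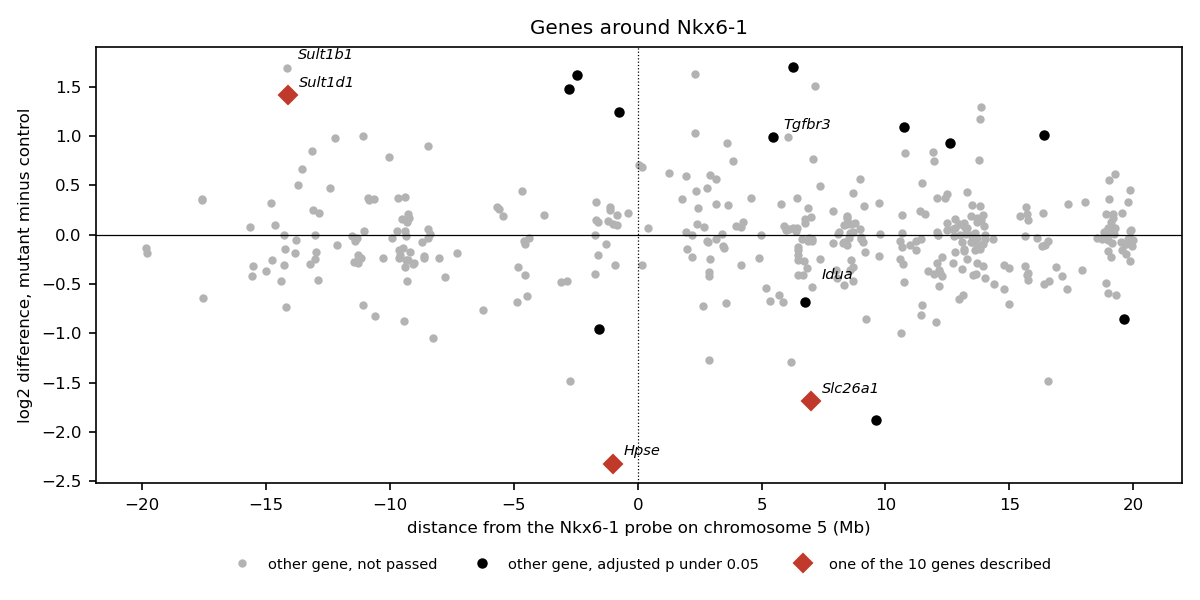
Log2 difference, mutant minus control, of the 396 gene names tested within 20 Mb of the Nkx6-1 probe, against distance from it. The 3 red diamonds are Sult1d1 (1.41), Hpse (-2.32) and Slc26a1 (-1.69), and black points are the 12 other gene names past the threshold, Tgfbr3 among them.

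Markers of other cells that can hold these genes were read beside them. The summed relative signal of the 12 acinar markers was 788 to 3710 in mutants and 1170 to 1570 in controls. That of the 7 leukocyte and macrophage markers was 21.0 to 27.1 in mutants and 32.4 to 35.9 in controls, which is lower in every mutant, as is Hpse, a gene also known from leukocytes. The mean log2 signal of the same list overlapped, at -0.61, -1.01 and -0.94 in mutants A to C, against -0.27, -0.87 and -0.82 in controls A to C. By marker, 5 of the 7 had a lower mean in mutants, from Cd3e at -0.55 and Itgam at -0.49 to Csf1r at -0.06, and Ptprc and Emr1 had a higher one, by 0.17 and 0.16. No marker of the list passed, and the part of leukocytes in the Hpse values was not tested.

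For mesenchyme the sum of 7 markers was 8.26 to 10 in mutants and 4.44 to 12.1 in controls. For endothelium the sum of 6 was 30.1 to 30.8 in mutants and 26.6 to 32.8 in controls, and for duct the sum of 5 was 1.83 to 3.05 in mutants and 2.78 to 3.17 in controls. These ranges overlapped, and no marker of the 3 lists passed, nor any of the 5 alpha and 3 delta cell markers. Without passing, Cftr (duct, 3.12), Rbp4 (delta, 1.30) and Irx2 (alpha, 0.59) were higher in every mutant than in any control. The other duct markers, Krt19, Muc1, Sox9 and Spp1, had lower means in mutants. The mean log2 signal of the delta list was 4.95, 5.32 and 5.40 in mutants A to C, against 4.89, 4.53 and 3.82 in controls A to C. That of the alpha list overlapped. Their part in the results was not tested. Of the 5 mast cell markers, Cma1 was above background on no array, and Cpa3 and Mcpt4 on 1 array of each group. Kit, which other cells also express, and Tpsb2 were above background on all 6 arrays, with differences of 1.34 and -0.28 that did not pass. Their summed relative signal was 0.793 to 1.25 in mutants and 0.378 to 0.616 in controls, higher in every mutant, and its part in the results was not tested. The beta cell markers were mixed. Ins1, Ins2 and Iapp were at 0.26, 0.25 and 0.26, with overlap. Slc2a2, Ucn3, G6pc2, Mafa and Pdx1 were lower in every mutant, at -2.01, -1.24, -0.81, -0.77 and -0.39. Only 2 of 8, Slc2a2 and Ucn3, passed the threshold. The mean log2 signal was 4.70, 4.67 and 4.68 in mutants A to C, against 5.36, 5.19 and 5.17 in controls A to C. The sum overlapped, at 619 to 1030 in mutants and 678 to 957 in controls. Their part in the results was not tested.

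Gene profiles most like those of the 4 genes chosen for their change were found by the smallest Euclidean distance between log2 signals centred over the 6 arrays, which largely follows the difference between the groups. For Papss2 they were Lifr (distance 0.25) and Maob (0.29). For Slc26a1 they were Emid1 (0.38) and Meltf (0.41, named Mfi2 on the array). For Hpse they were a transcript named ENSMUST00000113294 on the array (0.52) and Sytl4 (0.61), and for Sult1d1 Actn2 (0.26) and Kcnc2 (0.30).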

How the data were processed

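The 6 single-colour arrays each measured 150 ng of islet RNA labelled with Cy3. Per the file headers and the submitters' processing notes, the authors used Agilent Feature Extraction (version 10.7.3.1), and the deposited scanner files give spot intensity after background subtraction and detrending within the array, unscaled between arrays, with probe coordinates on mm9. The same deposited files hold flags (other values) for signal above background and outliers. A deposited table of intensity values, equalized between arrays by a method not given in the sources used here, served as an alternative. Its column medians were 272.8, 274.5 and 274.55 in mutants and 270.15, 266.95 and 268.3 in controls, it ran parallel to the median spot signal (rank correlation 0.999 or more), and its scaling stays unknown.

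Spots of a probe were averaged on the log2 scale, after which the array's 75th percentile over spots was subtracted. A probe was tested if it stood well above background throughout 1 group or both (28361 probes), and the brightest tested probe stood for a gene name (22775). The test was limma (version 3.58.1, R 4.3.3) (two-sided, Benjamini-Hochberg over all gene names, call at adjusted p under 0.05), tested on simulated data. Differences are mutant minus control, a fold compares geometric means, and a bound uses, per array, the lowest signal among probes well above background, or the probe's own where higher. The number of arrays limits the precision. Accessions were matched to RefSeq symbols for 15528 tested names, to find listed genes and to name like profiles. The test itself kept the gene names of the array.

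Deviations from group means correlated at -0.232, -0.187 and -0.031 between arrays of the same letter, and no label says that letters mark litters, so letters were not used as pairs. Slide, which also marks a shared scan, was tested as a block. Alternatives changed background correction, scaling, filter, outlier spots, probe choice, blocks, variance model, threshold and an acinar covariate, and left out arrays. Marker lists covered beta, alpha, delta, acinar, duct, endothelial, leukocyte, mast and mesenchymal cells. The genes and lists were chosen with earlier results of these data known. The genes named are the 10, Nkx6-1, up to 4 called genes a list or else its largest difference, and 2 like profiles for each gene chosen for its change. A few more (Slc35b2, Slc35b3, Suox, Ext1, Ext2, Sult1c2, Sult1e1, Agpat9, Tmem150c, Rasgef1b, Bmp3 and the beta, alpha and delta cell, duct, leukocyte and mast cell markers) were named after their values were seen. No p is given for the 4 genes chosen for their change, and no set test was run.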

Additional observations from a re-analysis of the deposited data

How the results depend on the processing

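Each of the 10 genes kept the sign of its difference under every alternative fit run and within each slide. Over the settings that kept all arrays, Papss2 ran from -1.61 to -1.38, Slc26a1 from -1.81 to -1.60, Hpse, by the probe above background on all arrays, from -2.32 to -1.81 and Sult1d1 from 1.38 to 1.49. Calls depended more on the setting. Of 2 calls among the 6 genes not chosen for their change, 1 was left with scaling to the median, with no filter on dim probes and with slide as a block, and 0 with the replicate block, with the acinar mean as a covariate and without mutant arrays A and B. Of 4 calls among other pathway genes, the counts were 0 with the replicate block, 9 with a robust variance trend, 12 at an adjusted p under 0.1, 1 with the acinar covariate and 1 without mutant arrays A and B. Near Nkx6-1 the 15 calls became 0 with the replicate block, 29 at an adjusted p under 0.1, 3 with the acinar covariate and 2 without those arrays, and over all genes the 576 calls became 0, 1514, 133 and 150 in the same order. With each array left out in turn the counts were 13 to 396 over all genes, 0 to 1 among the 6 genes, 0 to 4 among pathway genes and 0 to 9 near Nkx6-1. Over all genes, leaving out control A kept 396 calls and mutant A 305, while mutant C left 180, mutant B 22, control C 17 and control B 13. Among the 6 genes 1 passed without control A or without mutant A and 0 without any other array. The replicate block pairs arrays by letter, which no label says are related, and limma gave 3163 genes at an unadjusted p under 0.05 with it and 4600 without it. With it the adjusted p was 0.154 for Slc26a2 and 0.176 for Sulf2. Fewer arrays leave fewer degrees of freedom. The causes of the other changes were not tested. The limit set by signal over background touches the second Hpse probe, for which a bound alone can be given.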
